A study of Mus musculus with 6 samples.

Results

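The 100 genes described here had their highest RNA level in MCC, labelled as a myeloid-like cell complex, among 3 groups of mouse cells. The other groups were embryonic fibroblasts (MEF) and induced macrophages (iMac). Levels are given in CPM, a gene's count over the total count of its library, times 1000000. Genes with predicted symbols were left out, and a gene had to reach 5 CPM in both MCC libraries, which left 9653 of the 30445 genes in the table. Each was scored by the lower of its MCC levels over the highest level in any MEF or iMac library plus 0.1 CPM, and the 100 genes with the highest scores were selected on these measured levels. The score ran from 12.0 for Lrg1 to 1.62 for Aurkb. The last genes inside were Vrk1 and Ndc1, at 1.62, and Aurkb. Just outside lay Recql4 (1.62), H2-Q7 (1.61) and Eme1 (1.60), so the boundary falls within a run of nearly equal scores. Since the score uses the MCC levels against both other groups, those differences are given as a description with no test.

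Messenger RNA was sequenced from 2 libraries in each group, all of wild-type genotype. By its title, the study concerned c-Myc in the turning of fibroblasts into macrophages. The sources used here do not say how MCC and iMac were made, for how long, or from which fibroblasts. Nothing in the labels says that libraries of a group came from separate cultures, so p-values measure only the spread between these libraries, which may be technical.

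Counts per library ranged from 34389817 to 39174367. The macrophage genes Csf1r, Adgre1, Cd68 and Lyz2 and the leukocyte gene Ptprc were at 228 CPM or more in every MCC and iMac library. They were at 3.86 CPM or less in MEF. Myc was at 66.6 and 67.5 CPM in MEF, 859 and 1221 CPM in MCC, and 957 and 1022 CPM in iMac. The fixed list of 20 fibroblast genes summed to 31981 and 16616 CPM in MEF, 2654 and 1378 CPM in MCC, and 600.2 and 637 CPM in iMac. Vim, an intermediate filament gene of many mesenchymal and blood cells, made up most of the MCC library 2 and iMac sums, at 1267 and 1270 CPM in MCC and 582 and 619 CPM in iMac. Without it, a choice made after seeing the data, the other 19 genes summed to 27377 and 11977 CPM in MEF, 1387 and 108 CPM in MCC, and 18.4 and 17.3 CPM in iMac. Col1a1, the main chain of fibrillar collagen, was at 568 and 37.7 CPM in the MCC libraries and at 5.41 to 6.44 CPM in iMac. MCC therefore carried macrophage RNA throughout together with fibroblast RNA that differed between its libraries. In bulk RNA, fewer cells of a type and less RNA per cell cannot be told apart.

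Macrophages read their surroundings through surface receptors. Scavenger receptors and C-type lectins bind modified lipoproteins, dead cells and microbial sugars, and chemokine receptors guide migration. The cells also secrete chemokines and complement proteins and break down what they take up in lysosomes. Most mature macrophages divide little. A dividing cell must load helicases onto its DNA once per cycle, copy and repair the strands, and attach each chromosome to the spindle, and the genes for these steps tend to be transcribed together around S phase and mitosis. Both sets of genes occur among the 100, which were sorted by hand into 10 groups by what each encodes.

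Most of the 100 genes stood only moderately above the next group. The mean level in MCC over that in iMac ran from 1.65-fold to 52.3-fold with a median of 2.28-fold. Over MEF it ran from 1.96-fold to 5609-fold with a median of 4.09-fold in the 89 genes with more than 3 counts in MEF. For 78 genes the highest level outside MCC was in an iMac library, and for 22 in a MEF library. Of the 9653 genes scored, 2138 (22.1%) had a score above 1, and 40 above 2. The same score for MEF put 2192 genes of 10532 above 2, and for iMac 49 of 9520. Per kilobase of exon, Hmox1 had the highest MCC level of the 100, at 459 CPM per kb, followed by Ly6e (203), Fcrls (201), Ctsc (188) and Snx2 (182). The median was 7.87 CPM per kb in the 99 genes with an annotated length.

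**Figure D1:**
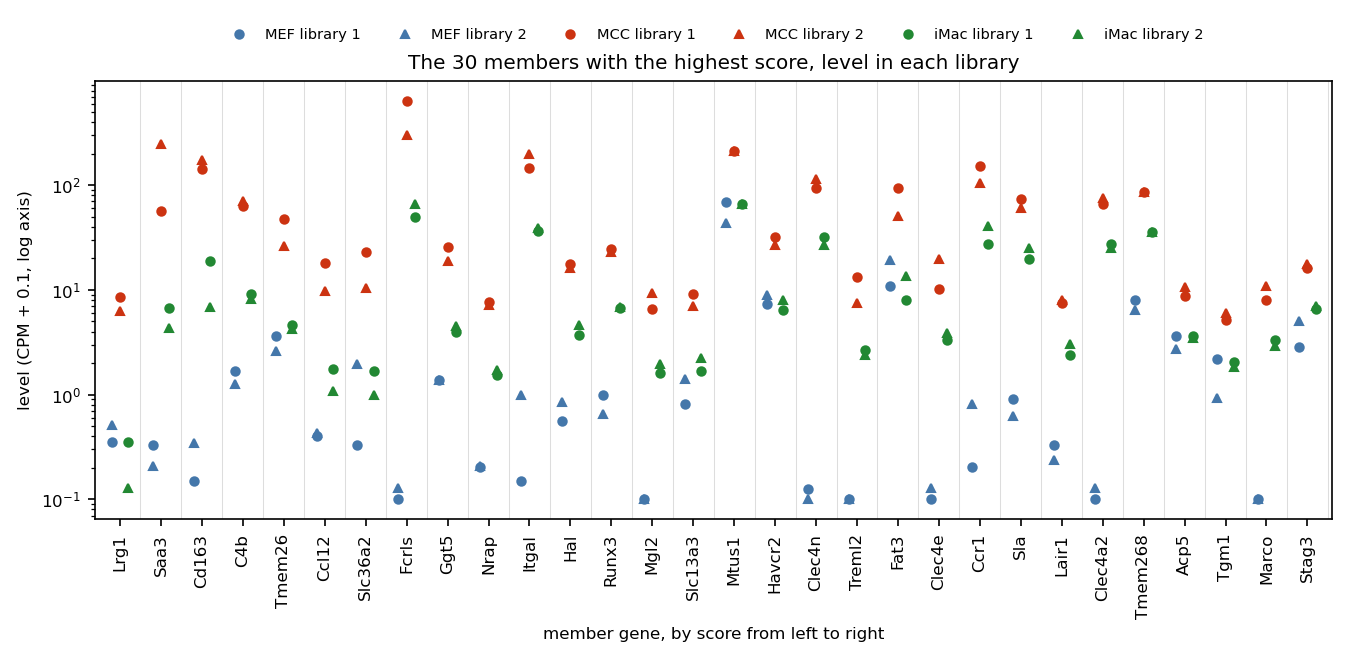
Levels of the 30 genes with the highest score, as CPM plus 0.1 on a log axis, in each of the 6 libraries (circles and triangles stand for libraries 1 and 2 of a group). Both MCC points lie above all 4 MEF and iMac points for every gene, as the choice of genes requires, and the MEF points range from 0 CPM to 69.5 CPM (Mtus1).

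The MCC libraries differed from each other in a minority of these genes. Library 1 was the higher in 52 of the 100, and the median ratio of the higher to the lower library was 1.14, against 1.10 in all 9653 scored genes. More than 1.5-fold lay between the libraries in 13 of the 100 and more than 2-fold in 4. Among all 9653 scored genes these numbers were 472 and 175, and library 1 was the higher in 4290. Saa3 was 4.42-fold higher in library 2, while Arg1 (4.06-fold), Slc36a2 (2.19-fold) and Fcrls (2.08-fold) were higher in library 1, the library with the larger sum of fibroblast genes. The next in size were Ccl24, Clec4e, Ccl12, Fat3, Gpr35 and Tmem26, at 1.82-fold to 1.99-fold. Whether the fibroblast RNA has a part in these differences was not tested. In the 23 genes of chromosome replication and division the median ratio was 1.04 and none reached 1.5.

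**Figure D2:**
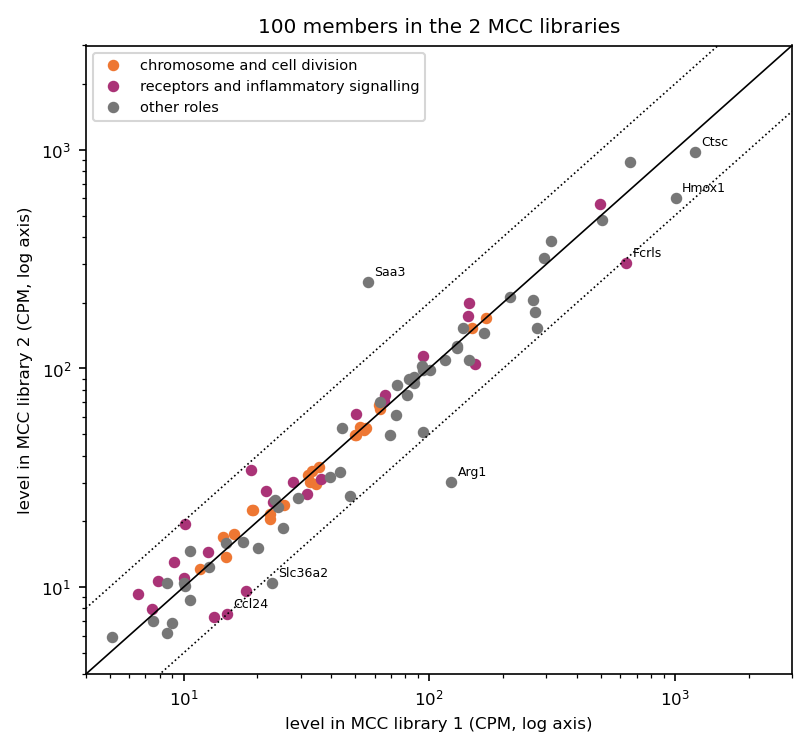
Level of each of the 100 genes in MCC library 1 (x axis) and MCC library 2 (y axis), in CPM on log axes, with colours for groups of genes. Saa3 lies far above the line of equal levels and Arg1 far below it, and the genes of chromosome replication and division lie on the line.

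Among the 4 highest scores, 3 belonged to secreted proteins of the acute-phase response and of complement. Lrg1, a secreted glycoprotein induced in inflammation (chr17:56119678-56122001, GRCm38), was at 0.255 and 0.413 CPM in MEF, 8.55 and 6.14 CPM in MCC, and 0.252 and 0.0291 CPM in iMac. Its MCC mean was 52.3-fold that of iMac, whose libraries held 9 and 1 counts. The MEF libraries held 10 and 15 counts, and Lrg1 was not called in iMac against MEF. Saa3, an acute-phase apolipoprotein made outside the liver (chr7:46711998-46715700), was at 0.230 and 0.110 CPM in MEF, 56.1 and 248 CPM in MCC, and 6.63 and 4.25 CPM in iMac. C4b, complement component of the classical pathway (chr17:34728380-34743882), was at 1.58 and 1.16 CPM in MEF, 63.0 and 70.6 CPM in MCC, and 8.95 and 8.03 CPM in iMac. Saa3 was thus high in both MCC libraries at unequal levels, and C4b was even between them. Reads of C4b may be shared with its near-identical copy.

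Receptors for microbes, cell debris and adhesion made up 14 of the 100, and in most of them MCC and iMac both stood far above MEF. Cd163, the scavenger receptor for haemoglobin bound to haptoglobin (chr6:124304656-124330527), was at 0.0511 and 0.248 CPM in MEF, 143 and 174 CPM in MCC, and 19.0 and 6.78 CPM in iMac. Fcrls, an Fc receptor-like protein of macrophages and microglia (chr3:87250758-87263738), was at 0 and 0.0276 CPM in MEF, 633 and 304 CPM in MCC, and 49.9 and 65.6 CPM in iMac. Itgal, the alpha chain of the leukocyte integrin LFA-1 (chr7:127296260-127335138), was at 0.0511 and 0.882 CPM in MEF, 145 and 199 CPM in MCC, and 36.6 and 39.2 CPM in iMac. The MCC mean was 12.3-fold the iMac mean for Cd163, 8.12-fold for Fcrls and 4.54-fold for Itgal. Msr1, scavenger receptor class A, had the highest CPM of the 14 in iMac, with 263 and 256 CPM against 494 and 565 CPM in MCC and 0.0511 and 0.138 CPM in MEF. Marco, another class A scavenger receptor, was at 0 in both MEF libraries, at 7.87 and 10.7 CPM in MCC, and at 3.25 and 2.79 CPM in iMac.

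C-type lectins, which bind sugars and glycolipids, gave 5 of these receptors. Clec4n, which recognises fungal mannan, was at 0.0255 and 0 CPM in MEF, 94.8 and 114 CPM in MCC, and 31.8 and 26.7 CPM in iMac. Clec4e, a sensor of mycobacterial cord factor, was at 0 and 0.0276 CPM in MEF, 10.2 and 19.5 CPM in MCC, and 3.25 and 3.78 CPM in iMac. Clec4a2, an inhibitory lectin, was at 0 and 0.0276 CPM in MEF, 66.2 and 75.6 CPM in MCC, and 27.3 and 25.1 CPM in iMac. These 3 genes kept nearly the same order of groups, with MCC 2.71-fold to 4.22-fold above iMac. Clec5a, which signals through DAP12, had 2.16-fold more in MCC than in iMac, and Mgl2, a galactose-binding lectin, 4.68-fold. With 1 or 2 counts in MEF, the ratio of MCC to MEF is loosely bounded: 1113 for Clec4e, with a 95% counting interval of 199 to 43990.2. Mgl2 and Clec4a2 have close paralogs with which their reads may be shared.

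The remaining receptors were mostly low in level. Treml2, a receptor of the TREM family, was at 13.3 and 7.32 CPM in MCC, 2.55 and 2.30 CPM in iMac and 0 in MEF. Lair1, an inhibitory collagen receptor, was at 7.41 and 7.97 CPM in MCC and at 2.29 and 2.94 CPM in iMac. Cd300lf, a lipid-binding receptor, stood 3.10-fold above iMac. Havcr2 (TIM-3), an inhibitory receptor, differed from the other 13 in its MEF level. It was at 7.17 and 8.77 CPM in MEF, 31.8 and 26.8 CPM in MCC, and 6.27 and 7.91 CPM in iMac, so that MEF and iMac overlapped.

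Chemokines, their receptors and other inflammatory signalling genes numbered 11. Ccl12, a monocyte-attracting chemokine (chr11:82101845-82103400), was at 0.306 and 0.331 CPM in MEF, 17.9 and 9.62 CPM in MCC, and 1.65 and 0.989 CPM in iMac. Its close relatives Ccl2 and Ccl7, which are not among the 100, differed in their MEF level: Ccl2 was at 142 and 142 CPM in MEF, 160.3 and 46.2 CPM in MCC, and 6.83 and 8.23 CPM in iMac, and Ccl7 at 73.1 and 50.2 CPM, 68.8 and 19.4 CPM, and 2.91 and 2.44 CPM. Ccl24, an attractant of eosinophils, was at 0 in MEF, 15.0 and 7.55 CPM in MCC, and 2.49 and 4.51 CPM in iMac. Ccr1, a receptor for inflammatory CC chemokines, was at 0.102 and 0.717 CPM in MEF, 154 and 105 CPM in MCC, and 27.1 and 41.0 CPM in iMac. Its MCC mean was 3.81-fold the iMac mean.

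Nlrp3, the sensor of an inflammasome that activates interleukin-1, was at 0 and 0.0551 CPM in MEF, 36.3 and 31.1 CPM in MCC, and 14.7 and 18.8 CPM in iMac. Alox5, the first enzyme of leukotriene synthesis, was at 3.17 and 4.77 CPM in MEF, 28.0 and 30.1 CPM in MCC, and 12.4 and 12.2 CPM in iMac. Il17ra, the shared chain of the interleukin-17 receptors, was the one gene of these 11 with overlapping MEF and iMac levels, at 26.0 and 29.0 CPM and at 23.3 and 28.9 CPM, against 65.3 and 71.0 CPM in MCC. Gpr35, Tnfrsf26, Relt and Il15ra, all surface receptors, were 1.85-fold to 2.73-fold higher in MCC than in iMac.

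There were 5 regulators of transcription or RNA. Runx3, a Runt-family transcription factor, was at 0.893 and 0.551 CPM in MEF, 24.3 and 23.1 CPM in MCC, and 6.63 and 6.80 CPM in iMac. Tfec, a macrophage-restricted relative of Mitf, was at 0.664 and 0.331 CPM in MEF, 43.2 and 33.5 CPM in MCC, and 15.1 and 15.5 CPM in iMac. Cebpb, a C/EBP factor of the acute-phase and macrophage response, was at 5.11 and 7.61 CPM in MEF, 20.1 and 15.2 CPM in MCC, and 8.73 and 6.22 CPM in iMac. Runx3 and Tfec had low MEF levels, while Cebpb, Arid5a, which stabilises inflammatory mRNAs, and the immediate early gene Ier2 were expressed in all 3 groups. For Cebpb, 20.7% of the exonic bases lie in another annotated gene, so its reads may be split or lost in counting.

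Proteases and other hydrolases numbered 6. Ctsc, the lysosomal cathepsin that activates the serine proteases of granules, had the highest CPM of the 100 in MCC, at 1203 and 977 CPM, against 464 and 516 CPM in iMac and 33.9 and 35.8 CPM in MEF. Prtn3, a serine protease of neutrophil granules, was at 10.6 and 14.7 CPM in MCC, 4.84 and 5.32 CPM in iMac, and 0.0766 and 0.110 CPM in MEF. The 15 neutrophil genes found in the table summed to 126 and 123 CPM in MCC and to 155 and 154 CPM in iMac. Most of the MCC sum came from Csf3r, the receptor for granulocyte colony-stimulating factor (63.6 and 79.7 CPM), and the collagenase gene Mmp8 (47.2 and 25.3 CPM), both of which rose in MCC and in iMac against MEF. In both MCC libraries Mpo and Ly6g were at 0, and Elane was at 0.163 and 0.168 CPM. The part of neutrophil-like RNA in the Prtn3 level was not tested. Ggt5, a gamma-glutamyltransferase that acts on leukotrienes, was at 25.3 and 18.6 CPM in MCC, 3.86 and 4.42 CPM in iMac, and 1.28 and 1.27 CPM in MEF. Ctsh, another cathepsin, Npl, which breaks down sialic acid, and Acp5, the acid phosphatase that marks osteoclasts, were 2.09-fold to 2.78-fold higher in MCC than in iMac.

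Genes of metabolism and of redox balance gave 12 members. Hmox1, which degrades haem to biliverdin and iron (chr8:75093621-75100589), was at 224 and 321 CPM in MEF, 1007 and 602 CPM in MCC, and 261 and 229.8 CPM in iMac. Arg1, arginase of alternatively activated macrophages, was at 0.230 and 0.276 CPM in MEF, 123 and 30.3 CPM in MCC, and 17.7 and 13.2 CPM in iMac. Hal, which breaks down histidine, was at 0.459 and 0.744 CPM in MEF, 17.5 and 16.1 CPM in MCC, and 3.64 and 4.54 CPM in iMac. Hmox1 and Cd163, whose products act one after the other in the disposal of haemoglobin, were both highest in MCC, but Hmox1 was high in all groups and Cd163 was not. Arg1 in MCC library 2 lay less than 2-fold above iMac library 1. Gsr and Glrx, which reduce glutathione and proteins joined to it, Taldo1 of the pentose phosphate pathway, Hk2, which starts glycolysis, and Mthfd1l of mitochondrial folate metabolism were 1.78-fold to 2.12-fold higher in MCC than in iMac. The others were Gda (3.19-fold), Cbr2 (2.76-fold), Ntpcr (2.14-fold) and Tgm1, at 5.10 and 5.92 CPM in MCC against 1.93 and 1.74 CPM in iMac.

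Among 4 genes of transport, Slc36a2, a proton-coupled amino acid carrier, was at 0.230 and 1.85 CPM in MEF, 22.9 and 10.4 CPM in MCC, and 1.57 and 0.901 CPM in iMac. Slc13a3 (4.26-fold), a carrier of dicarboxylates, Stra6l (2.67-fold), a retinol-binding protein receptor, and Trpv4 (2.07-fold), a calcium channel, stood above iMac by less. Of 10 genes of intracellular signalling and trafficking, Sla, an adaptor that dampens antigen and cytokine receptor signals, had the widest range, with 0.817 and 0.524 CPM in MEF, 73.3 and 61.1 CPM in MCC, and 19.6 and 24.9 CPM in iMac. The small GTPases Rab27a and Rab32, the retromer protein Snx2, the ubiquitin ligases Neurl1a and Rnf128, the phosphatases Ssh2 and Ptpn1, the calcium-binding Cracr2a and Pald1 lay between 1.82-fold and 2.27-fold above iMac.

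The 12 genes outside these groups included several better known from other tissues. Nrap, a protein of striated muscle, was at 7.49 and 7.01 CPM in MCC and at 1.63 CPM or less elsewhere. Fat3, a giant cadherin of the nervous system, was at 10.7 and 19.1 CPM in MEF, 94.7 and 51.3 CPM in MCC, and 7.83 and 13.4 CPM in iMac. Ednrb, an endothelin receptor, was at 39.4 and 74.3 CPM in MEF, 276 and 154 CPM in MCC, and 87.2 and 79.6 CPM in iMac. Fat3 and Ednrb were both higher in MCC library 1, the library with the larger sum of fibroblast genes, whose part in this was not tested. Tmem26, a membrane protein, stood 8.58-fold above iMac and Mtus1, which binds microtubules, 3.22-fold. Ly6e, a surface protein that alters the entry of viruses, Gbp7, an interferon-induced GTPase, Emilin2, a matrix glycoprotein, Ndc1 of the nuclear pore, Mtfr2, Tmem8 and Tmem268 completed the group, at 1.76-fold to 2.61-fold.

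Chromosome replication, repair and division was the largest of the 10 groups, with 23 genes, and the differences in it were small and even. All 23 had counts in every library. Over iMac the MCC mean was 1.65-fold to 2.52-fold higher with a median of 1.96-fold, and over MEF 2.22-fold to 6.53-fold with a median of 2.71-fold. Mcm5, a subunit of the replicative helicase (chr8:75109569-75128439), was at 42.1 and 96.5 CPM in MEF, 171 and 171 CPM in MCC, and 79.2 and 92.1 CPM in iMac. Bub1b, a kinase of the spindle checkpoint, was at 31.1 and 57.6 CPM in MEF, 149.7 and 153 CPM in MCC, and 76.3 and 85.0 CPM in iMac. MEF library 2 was above MEF library 1 in all 23 genes, by a median of 2.02-fold, whereas the MCC libraries differed by a median of 1.04-fold. Over the 100 genes MEF library 2 was the higher in 70, with a median ratio to library 1 of 1.44. No share over all genes is given for this, so it is not read as a trait of the 100 or of the 23. In CPM, the gap between MCC and fibroblasts was smaller against MEF library 2 for each of the 23.

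By role, Cdc6, Cdc45, Mcm5, Mcm10, Gmnn, Ticrr and Wdhd1 act in the licensing and firing of replication origins. Ung, Fancd2, Rad51ap1, Rad54l, Hrob and Ankle1 act in DNA repair or the cutting of DNA. Aurka, Aurkb, Bub1b, Kif15, Pkmyt1 and Vrk1 act in the entry into mitosis or in mitosis itself, and E2f2 and Mybl2 are transcription factors of cell-cycle genes. Stag3, a cohesin subunit, and Syce2, of the synaptonemal complex, are known for meiosis. Syce2 had the widest gap to MEF of the 23, at 1.68 and 2.70 CPM in MEF, 14.9 and 13.7 CPM in MCC, and 6.30 and 6.31 CPM in iMac. Stag3 was at 2.73 and 4.91 CPM in MEF, 16.1 and 17.6 CPM in MCC, and 6.46 and 6.92 CPM in iMac.

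**Figure D3:**
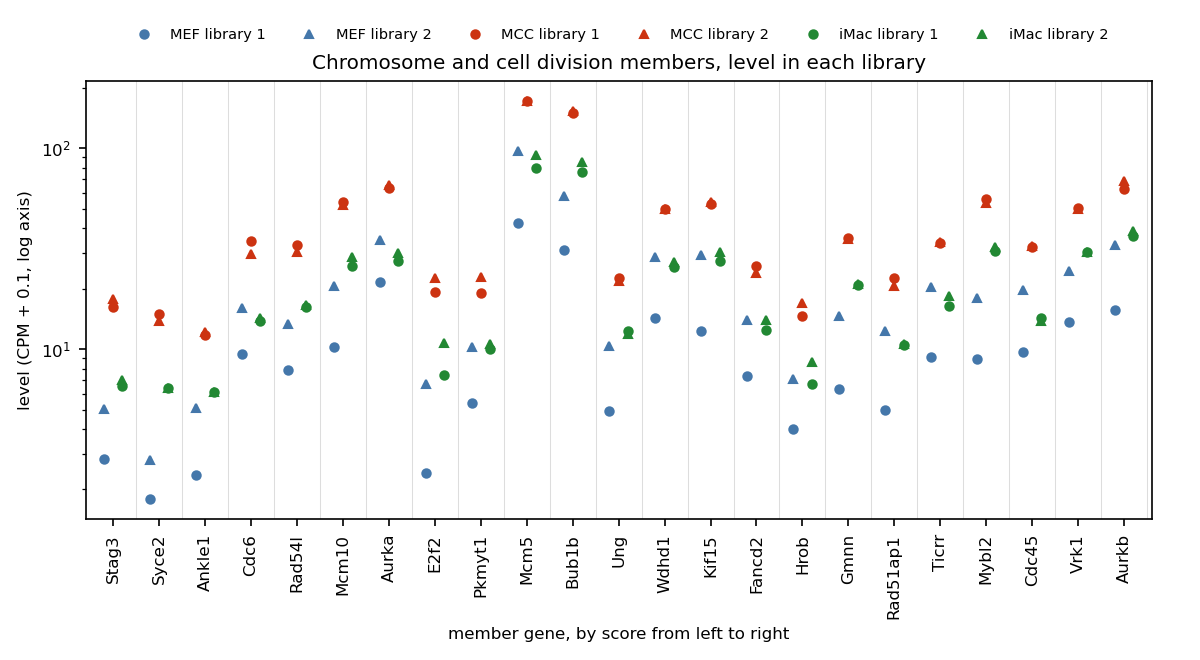
Levels of the 23 genes of chromosome replication and division, as CPM plus 0.1 on a log axis, in each of the 6 libraries. The MCC libraries coincide for most genes, such as Mcm5 at 171 CPM in both, and MEF library 2 lies above MEF library 1 for every gene.

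A fixed list of 20 cell-cycle genes, of which Aurka, Aurkb and Mcm5 are among the 100, was read beside them. It summed to 916 and 1845 CPM in MEF, 2692 and 2632 CPM in MCC, and 1412 and 1561 CPM in iMac. Without those 3, 5 of 17 genes rose in MCC against MEF (Mki67, Cdk2, Mcm3, Mcm6 and Pcna) and 0 fell, where 53.0% of all 18613 genes tested were called, 23.4% higher and 29.6% lower (edgeR quasi-likelihood test, Benjamini-Hochberg adjusted p under 0.05). In iMac against MEF, Mcm6 and Pcna rose and the cyclin genes Ccne1 and Ccne2 fell, which left 13 of the 17 without a call. These counts over the 17 genes were not repeated with libraries left out. Over all 20 genes, the number called in MCC against MEF changed when single libraries were left out. It includes Aurka, Aurkb and Mcm5, whose choice used this contrast, so nothing is read from it. In iMac against MEF 2 rose and 2 fell, but without MEF library 1 9 fell, without MEF library 2 9 rose and 1 fell, and without either iMac library 0 were called. The direction of cell-cycle genes in iMac against fibroblasts was therefore not settled by these libraries. Pcna, the sliding clamp of DNA polymerase, was at 60.2 and 127 CPM in MEF, 261 and 289.7 CPM in MCC, and 186 and 178 CPM in iMac. Ccne1, a cyclin of S phase entry that was not called in MCC against MEF, was at 33.6 and 30.7 CPM in MEF, 36.2 and 27.1 CPM in MCC, and 13.1 and 14.2 CPM in iMac.

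Few genes were called between iMac and MCC. In the same test 4 of 18613 genes (0.0215%) were called. Npnt and Id3 were lower in iMac (0.0107%), Tecpr1 and Rnf144b were higher (0.0107%), and 3380 genes had an unadjusted p under 0.05. None of the 4 is among the 100, whose choice used this contrast, so nothing is read from that. The number of calls over all genes changed with the tool, to 2722 with DESeq2 and 146 with limma-voom, and without MCC library 2 it was 1202.

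The order of iMac and MEF was not itself scored, and it was tested. The choice of genes was not neutral to it, since every MEF library had to lie below MCC. Every iMac library had to lie below MCC as well. How far these requirements favour a rise over MEF was not tested. The shares over other genes given here carry neither requirement. The counts are therefore a description and show no rise particular to the 100. Of the 100 genes, 61 rose in iMac against MEF and 0 fell (edgeR quasi-likelihood test on all 6 libraries, Benjamini-Hochberg adjusted p under 0.05), and 0 had an unadjusted p under 0.05 in the lower direction. Over all genes tested 57.6% were called, 25.1% higher and 32.4% lower, and over the 9653 genes that met the level minimum in MCC 36.7% rose and 23.3% fell. All 100 passed the filter on low counts, which the minimum in MCC ensures. The median log2 fold change was 1.12 in the 100, 0.18 in the 9653 and -0.06 in all genes tested. DESeq2 called 61 higher and 0 lower, and limma-voom 58 and 0. Without iMac library 1, 45 were called higher and Lrg1 was called lower. That Lrg1 call rests on 1 count in the remaining iMac library, for which the spread was taken from MEF and MCC.

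Counts for each group of genes are given as a description, since the groups were formed with values in view and were not tested against each other. They stand beside 36.7% higher among genes at the level minimum in MCC and 25.1% among all genes. Of the 14 receptors, 13 rose, with a median log2 fold change of 8.80. The median was 6.50 with genes of at most 3 counts in MEF set to their bound. Havcr2 did not pass (-0.09 ± 0.18, an approximate SE taken from the test statistic). Of the 11 chemokine and signalling genes 9 rose, with Il17ra and Relt not called. In the same edgeR test Msr1 rose by 11.48 ± 0.30 (adjusted p = 5.91e-05) and Prtn3 by 5.80 ± 0.34 (adjusted p = 0.000433). Both had 7 counts over the MEF libraries, and their printed errors are smaller than the counting error on so few. Tmem8 rose by 5.03 ± 0.22 (adjusted p = 0.000183) and Ctsc by 3.89 ± 0.16 (adjusted p = 0.000158). Marco, at 0 in MEF, was at least 76.0-fold higher in iMac against a floor of 3 counts over the group. Ctsc differed from Msr1, Prtn3 and Marco in that it was also well expressed in MEF.

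Of 12 metabolic genes 7 rose, among them Arg1 and Hal, while Hmox1 (-0.06 ± 0.28) and Gda (-0.07 ± 0.33) did not pass. Of the 23 genes of replication and division 8 rose (Stag3, Syce2, Rad54l, Mcm10, Bub1b, Gmnn, Mybl2 and Vrk1), with a median log2 fold change of 0.73 over the 23. That count rested on single libraries. It was 21 without MEF library 2, 7 without MEF library 1, 1 without either iMac library, and 4 when only MEF and iMac were fitted. Cdc45 had the smallest estimate of the 23, at 0.04 ± 0.29 (adjusted p = 0.916). In the other groups, 7 of 10 signalling and trafficking genes rose, 6 of 12 unclassed genes, 5 of 6 hydrolases, 3 of 5 regulators, 2 of 3 secreted proteins and 1 of 4 transport genes.

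**Figure D4:**
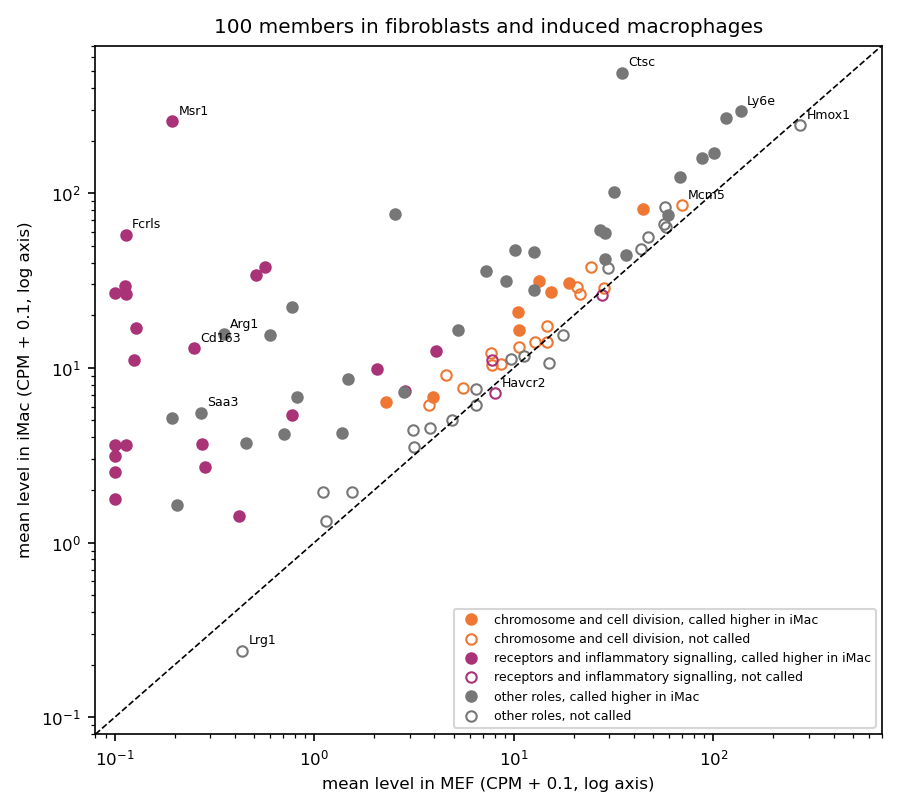
Mean level in MEF (x axis) against mean level in iMac (y axis) for the 100 genes, as CPM plus 0.1 on log axes; filled points passed the test as higher in iMac and open points did not. Many receptors and inflammatory genes lie towards the left, at or near 0 in MEF, but Il17ra, Havcr2, Relt and Alox5 do not, and genes of replication and division lie close to the line of equal levels.

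Other fixed lists place these genes among their relatives, and their counts stand beside the 25.1% higher and 32.4% lower of all genes in iMac against MEF. Unless stated otherwise, the counts include list genes that are among the 100. Of 11 chemokine receptors tested, 6 rose and 2 fell in iMac against MEF, or 1 fell without MEF library 1 or either iMac library. Among the rising genes were Ccr1, Ccr2, Ccr3, Cxcr3 and Cx3cr1, of which Cx3cr1, the fractalkine receptor, was at 643 and 369 CPM in MCC and 350.4 and 473 CPM in iMac, so that those groups overlapped. Ccr2 was at 25.0 and 114 CPM in MCC and 29.7 and 32.6 CPM in iMac, again with overlap. Of 21 macrophage identity genes, 19 rose in iMac against MEF and Lyve1 fell. Without Msr1, Cd163 and Marco, which are among the 100, 16 of 18 rose and 1 fell. Of 10 tested genes of alternative activation 7 rose and 2 fell, or 4 and 2 of 7 without Arg1, Mgl2 and Ccl24 of the 100. Mrc1, the mannose receptor of that list, was at 2313 and 2092 CPM in MCC and at 1275 and 1315 CPM in iMac, above iMac but outside the 100. Of 15 inflammatory cytokine and chemokine genes, 7 rose, Ccl12 of the 100 among them, and 4 fell in iMac against MEF. Without iMac library 1 these were 4 and 2, without iMac library 2 1 fell, and without MEF library 2 2 fell.

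Several of the 100 genes lie within 500 kb of another of them, and genes between them were not looked for. Clec4a2 (chr6:123106428-123143999), Clec4n (chr6:123229843-123247021) and Clec4e (chr6:123281789-123289870) lie in that order in the lectin cluster, with 85.8 kb and 34.8 kb from one to the next of these. Hmox1 and Mcm5, of unrelated function, are 8.98 kb apart. Syce2 with Ier2, Cebpb with Ptpn1, Ung with Trpv4 and the outer lectin pair also lie within 500 kb of each other. Coordinates are from GENCODE release M21 on GRCm38, the assembly of the authors' mm10.

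Promoter windows from RefSeq on GRCm38.p6, from 250 bases before to 50 bases after the start of the gene, were found for 74 of the 100 genes and for 13535 genes of the table. PU.1, encoded by Spi1, is the ETS factor that macrophage genes depend on, and its core was searched as GAGGAA and, on the other strand, TTCCTC. E2F factors drive replication genes, and their site was searched as TTTGGCGC, TTTCGCGC or TTCCCGCC on both strands. The stretches printed are from receptor and inflammatory genes with the PU.1 letters, and from Mcm5 with the E2F letters. They run 5′ to 3′ on the strand of the gene, up to the base before the RefSeq start (for Clec5a the first 140 of these 160 bases), and capitals mark the match.
Ccl12: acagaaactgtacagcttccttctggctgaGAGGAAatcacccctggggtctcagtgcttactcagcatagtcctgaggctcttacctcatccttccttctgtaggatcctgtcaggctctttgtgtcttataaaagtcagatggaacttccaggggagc
Clec4e: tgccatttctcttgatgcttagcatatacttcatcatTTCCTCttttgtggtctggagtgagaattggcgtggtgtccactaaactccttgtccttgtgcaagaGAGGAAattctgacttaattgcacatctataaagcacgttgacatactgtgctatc
Ccr1: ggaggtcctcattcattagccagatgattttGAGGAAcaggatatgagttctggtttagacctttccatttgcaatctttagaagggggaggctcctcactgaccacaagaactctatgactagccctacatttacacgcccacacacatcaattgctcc
Marco: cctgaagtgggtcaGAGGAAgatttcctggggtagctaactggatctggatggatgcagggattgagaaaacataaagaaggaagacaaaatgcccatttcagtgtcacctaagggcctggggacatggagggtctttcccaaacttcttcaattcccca
Cd300lf: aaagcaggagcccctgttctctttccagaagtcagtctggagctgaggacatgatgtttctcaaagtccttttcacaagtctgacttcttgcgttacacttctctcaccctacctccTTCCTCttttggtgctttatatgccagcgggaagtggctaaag
Clec5a: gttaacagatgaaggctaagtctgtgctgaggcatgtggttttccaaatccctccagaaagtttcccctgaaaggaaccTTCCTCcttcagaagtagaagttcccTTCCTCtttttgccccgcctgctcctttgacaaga
Nlrp3: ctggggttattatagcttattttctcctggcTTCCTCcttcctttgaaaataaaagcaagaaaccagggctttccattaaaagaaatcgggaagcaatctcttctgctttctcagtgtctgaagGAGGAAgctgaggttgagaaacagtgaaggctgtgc
Mcm5: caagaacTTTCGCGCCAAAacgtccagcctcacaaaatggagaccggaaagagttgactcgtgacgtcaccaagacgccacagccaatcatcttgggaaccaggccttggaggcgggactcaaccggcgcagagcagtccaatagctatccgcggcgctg

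Their positions are chr11:82101685-82101844 (Ccl12, plus strand), chr6:123289872-123290031 (Clec4e, minus), chr9:123968693-123968852 (Ccr1, minus), chr1:120505025-120505184 (Marco, minus), chr11:115133993-115134152 (Cd300lf, minus), chr6:40585826-40585965 (Clec5a, minus), chr11:59542526-59542685 (Nlrp3, plus) and chr8:75109349-75109508 (Mcm5, plus). Clec4e, Clec5a and Nlrp3 each hold 2 PU.1 matches in the stretch printed. In Mcm5 a pair of E2F matches on opposite strands overlap, and the capitals cover both. For Nlrp3 and Clec5a the RefSeq start lies inside the span that GENCODE gives the gene.

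The PU.1 letters were in 13 of the 17 windows of receptor and inflammatory genes (76.5%). They were in 5 of 18 windows of replication and division genes (27.8%), 11 of 39 windows of the other genes (28.2%) and 27.3% of all 13535 windows. Among the 7775 windows of genes at the level minimum in MCC the share was 26.7%. The E2F letters were in 4 of 18 windows of replication and division genes (22.2%), 0 of 17 receptor and inflammatory windows and 4.84% of all windows. CCAAT was in 10 of the 18 division windows (55.6%), against 38.2% of all. The CHR element TTTGAA of late cell-cycle genes was in 33.3% of the division windows and 29.4% of the receptor windows, against 13.1% of all. The E-box CACGTG, which Myc binds, was in 4 of the 74 windows (5.41%), against 9.26% of all, and nothing is read from so few windows. The C/EBP letters TTGCNNAA were in 9 of the 74 windows (12.2%) and the AP-1 letters TGANTCA in 4 (5.41%), against 8.98% of all windows and 812 of the 13535 windows. A match is a run of letters in the window and not a measured site of binding.

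**Figure D5:**
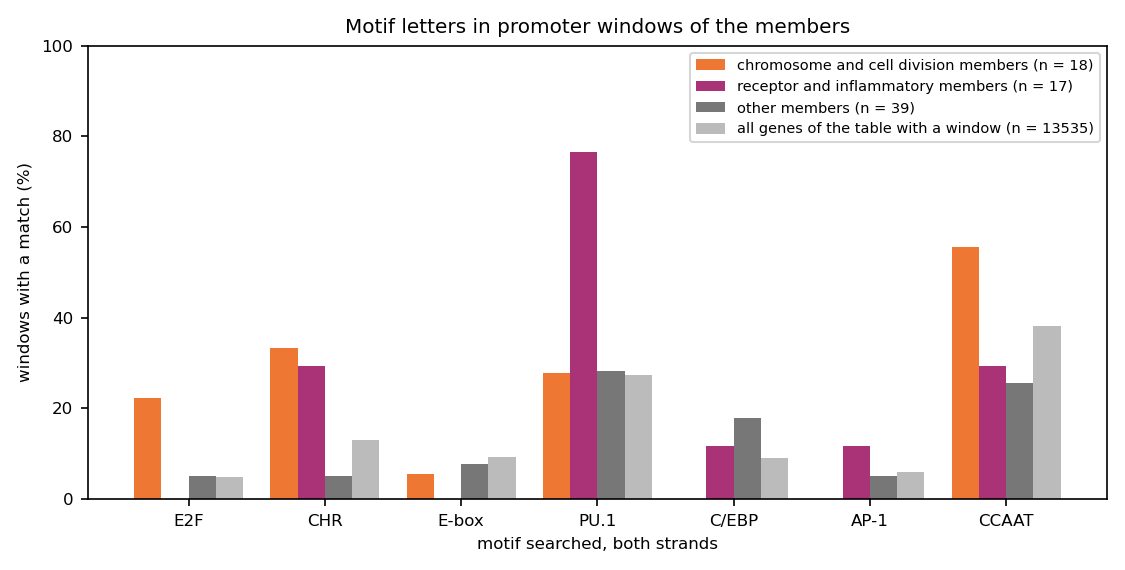
Percentage of promoter windows (y axis) that hold each motif's letters on either strand (x axis), for receptor and inflammatory genes (n = 17), replication and division genes (n = 18), the other members (n = 39) and all genes with a window (n = 13535). The PU.1 bar of the receptor and inflammatory genes reaches 76.5%, and no E2F bar exceeds 22.2%.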

How the data were processed

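The values are raw counts of reads per gene, deposited by the authors for 6 libraries in one table. Per the labels' protocols, RNA was extracted with Trizol and libraries were made with a VAHTS mRNA kit. STAR, featureCounts and the mm10 genome are named in the submitters' processing notes. These give no versions, annotation, strand setting or handling of reads with several matches, so reads of overlapping genes and close paralogs may be split. More than 5% of the exonic bases of 12 members lie in another gene.

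For the tests, edgeR 4.0.16 ran under R 4.3.3 on the counts (low genes removed by filterByExpr, TMM, two-sided quasi-likelihood test, group as the only term, 3 residual degrees of freedom), with Benjamini-Hochberg adjustment over 18613 genes; 11832 genes were removed by the filter. Printed CPM are over the plain library total. Errors of fold changes are the log2 fold change divided by the square root of the test's F statistic. They approximate a standard error, and can be too small for genes with few counts in a group. A group with no counts was set to a floor of 3 counts over the group, and ratios on 1 to 3 counts carry a 95% interval; both cover counting error only. The pipelines were also tested on simulated data.

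The members, gene lists and tests were chosen with earlier results of these data known. Members were sorted into roles by hand after their values had been seen. The rule for named genes took the 30 highest scores, the 10 highest MCC levels, the 10 largest ratios between MCC libraries, the members of gene lists, the largest calls in iMac against MEF, the genes at the boundary and members within 500 kb of each other. Other members and list genes were named after their values were seen. DESeq2 1.42.0, limma 3.58.1 (voom), other scaling and filters, a replicate block and leaving out each library were alternatives. Motifs were searched with Python 3.11.15. The results for 1 of the 100 genes are not reported here by name.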

Additional observations from a re-analysis of the deposited data

How the results depend on the processing

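With 2 libraries a group, single libraries carried much of the result. Of the 61 members called higher in iMac against MEF, 44 kept the call in all 13 alternatives and 17 lost it in at least 1; 20 others gained one and 0 reversed. Leaving out each library in turn gave 0 to 1 members called lower. Of the 100 members, 95 stayed in the top 100 with an offset of 1 CPM, 92 with TMM-scaled CPM, 87 with a minimum of 10 CPM and 74 with a minimum of 1 CPM. Without 1 library 70 to 96 stayed, the fewest without MEF library 2 or MCC library 2 (70 each) and without MCC library 1 (71).

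Over all genes, a filter of 5 CPM gave 3656 lower in MCC against MEF and 3972 lower in iMac against MEF. Leaving out each library gave 3514 to 4976 lower in MCC against MEF, and in iMac against MEF 5173 to 10695 calls, 2492 to 4378 higher and 2678 to 6319 lower. For iMac against MCC the 4 calls (2 higher, 2 lower) became 2722 with DESeq2 (1186 and 1536), 146 with limma-voom (101 and 45), 89 with no filter (40 and 49) and 1364 with only the groups compared (691 and 673). Leaving out each library gave 0 to 1202 calls, 0 to 66 higher and 0 to 1136 lower, the most without MCC library 2. The causes were not tested. Of 2340 counts for gene lists, 330 moved by over 1.5 times.

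Correlations of the deviations of same-numbered libraries were 0.131 for MEF and MCC, -0.00688 for MEF and iMac, and 0.00226 for MCC and iMac. Such values cannot tell, at 2 libraries a group, whether same-numbered libraries were handled together. With a replicate block 60 members were called in iMac against MEF, and over all genes 9022 in MCC against MEF, 9908 in iMac against MEF and 0 in iMac against MCC (0 higher, 0 lower).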
